A study of Mus musculus with 81 samples.

Results

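The endogenous TCRβ repertoire was followed in the blood of mice given the full dose of 1e9 mRBC-OVA-4-1BBL-IL-12, in 9 of the 81 libraries of the series. The libraries were chosen by their labels, as the day 0 and day 7 blood of this dose group, and 4 mice (mice 2, 3, 4 and 5) had both days. Mouse 1 had a day 7 library, and its day 0 blood was not analysed here. Endogenous clones were all productive (in-frame) rearrangements other than those with the CDR3 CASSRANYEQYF, which belongs to the transferred OT-1 cells.

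All mice were CD45.1 Pep Boy females (B6.SJL-Ptprc<a> Pepc<b>/BoyJ) with subcutaneous EG7.OVA tumors, an ovalbumin-expressing derivative of the T-cell lymphoma EL4, and received 1e6 naïve OT-1 cells, whose transgenic TCR binds an ovalbumin peptide on H-2Kb. mRBC-OVA-4-1BBL-IL-12 are mouse red blood cells to which that peptide-MHC complex, the costimulatory ligand 4-1BBL and the cytokine IL-12 were conjugated, and mRBC-CTRL are unmodified mouse red blood cells. Doses were given intravenously on days 0 and 3. The full dose was set against 1e9 mRBC-CTRL (4 mice with both days) and against a lower dose of the same conjugated cells, 2.5e8 (5 mice with both days). The day 0 bleed preceded dosing and followed the transfer of OT-1 cells by 5 minutes, and the day 7 bleed was made with the collection of the tumors. Each library came from a different mouse or day, and the age of the mice was not given in the sources used here. The lymphoma is itself of T-cell origin.

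The β chain of a T-cell receptor is assembled from V, D and J segments, with bases trimmed and inserted at the junctions. The resulting CDR3 lies over the peptide in the recognition of antigen, and a rearrangement is inherited by all daughters of a cell, so that a rearrangement carried by many templates marks a clone that has divided. A T cell can also keep a failed, non-productive rearrangement on its other chromosome, which is amplified from genomic DNA along with the productive one.

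The largest clones and the clones whose sequence bears on a comparison are shown here as read, 5′ to 3′, so that related receptors can be compared by eye. Each line gives the 87-base read with the CDR3 in capitals, starting at the codon of the conserved cysteine. The codon of the last CDR3 residue lies beyond the end of the read. The first 4 use TCRBV19-01, and the last pair encode the same CDR3 in different mice.
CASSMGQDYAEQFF in mouse 5: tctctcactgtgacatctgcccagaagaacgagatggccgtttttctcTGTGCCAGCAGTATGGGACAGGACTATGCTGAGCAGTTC
TCRBV19-01, TCRBJ02-07 clone in mouse 5: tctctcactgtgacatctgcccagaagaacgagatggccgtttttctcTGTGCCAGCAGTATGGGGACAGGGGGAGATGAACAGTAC
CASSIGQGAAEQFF in mouse 3: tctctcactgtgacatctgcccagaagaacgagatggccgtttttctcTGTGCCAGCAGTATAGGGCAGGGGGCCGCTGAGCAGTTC
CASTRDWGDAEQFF in mouse 4: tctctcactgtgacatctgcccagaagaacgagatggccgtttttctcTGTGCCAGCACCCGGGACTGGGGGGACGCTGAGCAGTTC
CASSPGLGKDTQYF in mouse 2: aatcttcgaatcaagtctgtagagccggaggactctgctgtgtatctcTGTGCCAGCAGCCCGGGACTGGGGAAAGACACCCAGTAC
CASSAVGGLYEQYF in mouse 3: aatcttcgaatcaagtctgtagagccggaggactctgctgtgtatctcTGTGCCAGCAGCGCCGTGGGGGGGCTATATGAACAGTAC
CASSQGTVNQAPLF in mouse 3: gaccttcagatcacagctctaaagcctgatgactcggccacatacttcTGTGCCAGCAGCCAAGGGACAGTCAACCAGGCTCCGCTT
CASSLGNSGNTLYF in mouse 3: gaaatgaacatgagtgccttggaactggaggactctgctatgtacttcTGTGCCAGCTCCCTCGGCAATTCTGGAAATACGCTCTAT
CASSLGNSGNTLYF in mouse 4: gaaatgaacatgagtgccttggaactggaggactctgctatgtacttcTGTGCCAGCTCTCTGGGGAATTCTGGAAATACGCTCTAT

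Depth limited the comparisons, and 1 library stood apart. On day 0 the libraries of mice 2, 3, 4 and 5 held 4333, 3016, 4817 and 6295 endogenous productive templates, and on day 7 those of mice 1 to 5 held 4480, 1595, 5944, 6579 and 482. The day 7 library of mouse 5 was the shallowest. A floor of 3 templates was set here, although single templates were also counted. This floor was 0.622% of templates in that library, against 0.0456% to 0.188% in the other day 7 libraries. OT-1 made up 20.9% to 31.3% of productive templates on day 0 and 48.1% to 79.5% on day 7, and was left out of every denominator unless stated. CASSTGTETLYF, the CDR3 of the lymphoma, had 0 templates in 9 of 9 libraries. A share of templates does not tell more cells of a clone from fewer cells of the others.

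Of 177 clones with at least 5 templates over both days of a mouse, 108 (61.0%) were higher on day 7 and 3 (1.69%) were lower (2-sided Fisher's exact test within each mouse, Benjamini-Hochberg adjusted p under 0.05). By mouse, 14 of 20 tested clones were higher in mouse 2, 38 of 69 in mouse 3, 48 of 77 in mouse 4 and 8 of 11 in mouse 5. On day 0, 97 of the 108 clones had 0 templates, and 11 were already seen. Together the higher clones of mice 2, 3, 4 and 5 made up 0.508%, 0.0995%, 0.934% and 0.0635% of endogenous templates on day 0, and 20%, 29.5%, 23.7% and 21.6% on day 7 (mean 23.7% ± 4.15, SD, n = 4). These shares describe clones chosen for being higher and carry no test.

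The same comparison called 34 of 106 clones higher (32.1%) and 7 lower (6.6%) with mRBC-CTRL, and 120 of 196 higher (61.2%) and 3 lower (1.53%) at 2.5e8. Of the higher clones, 30 of 34 and 93 of 120 had 0 templates on day 0, against 97 of 108 at 1e9. With mRBC-CTRL the higher clones summed to 3.39% ± 1.31 of day 7 templates (SD, n = 4), and at 2.5e8 to 14.2% ± 4.62 (SD, n = 5). Because calls depend on depth, all libraries were also subsampled to 482 endogenous templates. The number of clones called higher was then 4.55, 7.4, 4.25 and 3.0 in mice 2, 3, 4 and 5 (mean over 20 draws), or 4.8 ± 1.86, against 0.550 ± 0.418 with mRBC-CTRL (SD, n = 4 each, p = 0.0286, 2-sided exact permutation test, the smallest p this design allows). Every mouse at 1e9 lay above every mouse given mRBC-CTRL. The p was 0.2 after adjustment over the 14 comparisons between dose groups. Against 2.55 ± 1.56 at 2.5e8 (SD, n = 5) the difference was 2.25 (p = 0.0794, exact permutation test). It was 2.33, 1.38 and 2.43 without mouse 2, 3 or 4 (exact permutation p = 0.125, 0.214 and 0.125) and 2.85 without mouse 5 (exact permutation p = 0.0357). As a share of the clones tested at equal depth, 67.3% ± 12.8 were called at 1e9, 65.7% ± 21.9 with mRBC-CTRL and 67.1% ± 28.8 at 2.5e8 (exact permutation p = 0.857 and 0.992). At the deposited depth, 1e9 exceeded mRBC-CTRL by 23.4 percentage points in this share (exact permutation p = 0.143). More clones reached the minimum of 5 templates at 1e9 (7.11 ± 1.89) than with mRBC-CTRL (0.913 ± 0.622). Draws with no tested clone were left out of the share called. With mRBC-CTRL that share thus rested on very few clones, and its comparison cannot tell whether the groups differ.

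**Figure D1:**
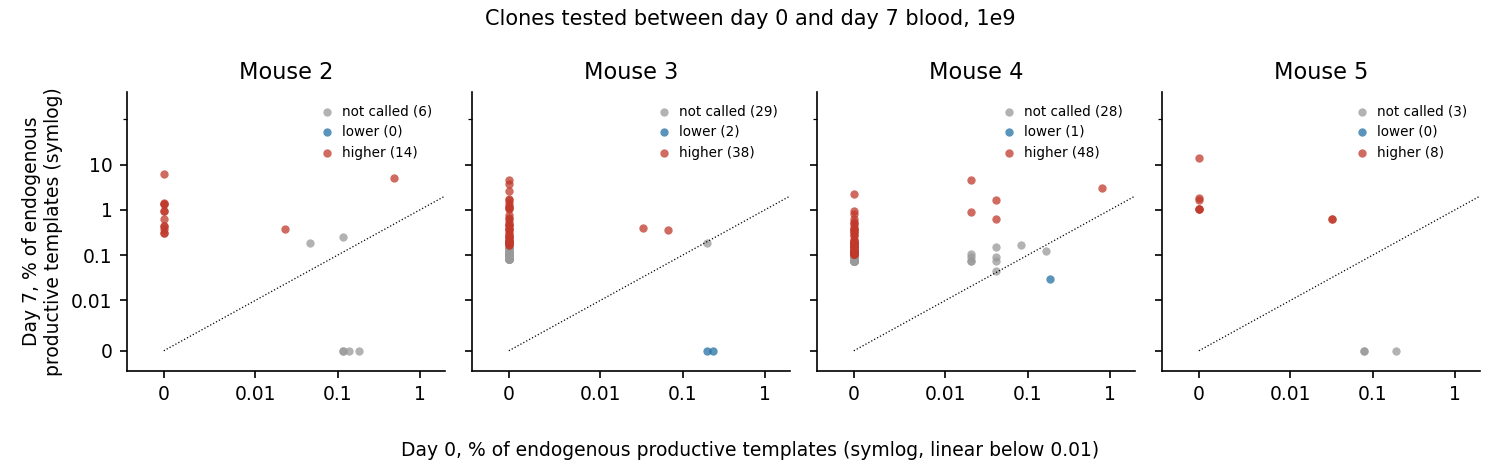
Each point is a clone tested in 1 mouse at 1e9, with its percent of endogenous productive templates on day 0 (x axis) and day 7 (y axis), both on symmetric log axes that are linear below 0.01%. Red marks clones called higher, blue lower and grey not called, the dotted line marks equal shares, and most red points lie at 0 on day 0 (97 of 108).

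In mouse 5, the largest clone was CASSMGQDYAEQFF (TCRBV19-01, TCRBJ02-01), with 0 templates on day 0 and 66 of 482 on day 7, or 13.7% (95% Wilson interval 10.9% to 17.1%). Set against a day 0 floor of 3 templates, its day 7 share was 287-fold higher (Fisher's exact test of the counts, adjusted p = 2.43e-77). Folds over the floor, here and below, are point values and not lower bounds. This clone has 0 inserted bases at its junctions. The next clones of the mouse, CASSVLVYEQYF (TCRBV04-01) and a TCRBV19-01, TCRBJ02-07 clone with a CDR3 of 14 residues, had 0 templates on day 0 and 9 and 8 on day 7. The first and second clone had 66 and 9 templates, where those of the other mice with both days had 97 and 80, 274 and 216, and 305 and 195.

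In mouse 3, several large clones appeared side by side. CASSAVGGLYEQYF (TCRBV04-01, TCRBJ02-07) went from 0 to 274 templates (4.61% on day 7, 95% Wilson interval 4.11% to 5.17%, 46.3-fold over the floor, Fisher's exact test, adjusted p = 1.39e-48). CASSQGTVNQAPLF (TCRBV02-01, TCRBJ01-05) went from 0 to 216 templates (3.63%, 36.5-fold over the floor). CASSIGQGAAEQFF (TCRBV19-01, TCRBJ02-01) went from 0 to 155 templates (2.61%, 26.2-fold over the floor).

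In mouse 4, clones already seen on day 0 were among the largest. A TCRBV13-03, TCRBJ02-04 clone with a CDR3 of 15 residues went from 1 to 305 templates (0.0208% to 4.64%, 223-fold, 95% interval 39.8 to 8849, Fisher's exact test, adjusted p = 9.38e-71). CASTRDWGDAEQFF (TCRBV19-01, TCRBJ02-01) was the largest clone of the 4 day 0 libraries at 1e9, with 39 templates, and had 195 on day 7 (0.810% to 2.96%, 3.66-fold, 95% interval 2.59 to 5.30, adjusted p = 6.76e-16 by the same test). A TCRBV20-01, TCRBJ02-07 clone with a CDR3 of 15 residues went from 0 to 150 templates (2.28%, 36.6-fold over the floor).

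In mouse 2, the largest day 7 clone was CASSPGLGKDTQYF (TCRBV04-01, TCRBJ02-05), which went from 0 to 97 templates (6.08%, 95% Wilson interval 5.01% to 7.36%, 87.8-fold over the floor, Fisher's exact test, adjusted p = 1.11e-55). A TCRBV02-01, TCRBJ02-07 clone with a CDR3 of 15 residues was the largest of the mouse on day 0, with 21 templates, and rose further to 80 (0.485% to 5.02%, 10.3-fold, 95% interval 6.34 to 17.6). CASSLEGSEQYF (TCRBV12-01) went from 0 to 23 templates. In mouse 1, which has no day 0 library, the largest day 7 clone was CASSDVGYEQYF (TCRBV13-03, TCRBJ02-07), with 83 templates (1.85%, 95% Wilson interval 1.5% to 2.29%).

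At the threshold, the last clones called higher in mouse 3, tied in adjusted p, went from 0 to 10 or 11 templates (Fisher's exact test, adjusted p = 0.0350). The first one not called went from 0 to 9 (adjusted p = 0.0552 by the same test). In mouse 4 these were 0 to 7 or 8, again tied (adjusted p = 0.0384), and 0 to 6 (adjusted p = 0.0609, Fisher's exact test). In mouse 2 the last clone called went from 1 to 6 templates, and the first not called from 8 to 0. In mouse 5 the last called went from 2 to 3 templates and the first not called from 5 to 0.

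The CDR3 was found in at least 1 of the 26 other mice of the series for 64 of the 108 higher clones, for 21 of them in at least 5, and for 44 in none. As nucleotide rearrangements, 22 of the 108 occurred in another mouse. The same shares over all day 7 rearrangements are not given here, so these counts do not tell whether higher clones were shared more or less often. A single CDR3, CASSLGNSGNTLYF (TCRBV12-01, TCRBJ01-03), belonged to clones called higher in 2 mice. As rearrangements, these clones went from 0 to 11 templates in mouse 3 and from 0 to 36 in mouse 4. The reads of these clones, shown above, differ at 3 bases, all within the CDR3. This CDR3 was found in 21 of the 26 other mice. In the day 0 blood of mouse 3, a different rearrangement of it had 2 templates. The CDR3s of the 108 clones had 10 to 16 residues (median 14) and a median of 3 inserted bases.

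Most large day 0 clones were not found again, although few losses could be called. Of 15 clones with at least 5 templates on day 0, 6 were found on day 7, 2 were called higher and 3 lower. In mouse 3, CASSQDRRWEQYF (TCRBV02-01), its largest day 0 clone, fell from 7 to 0 templates (Fisher's exact test, adjusted p = 0.00160) and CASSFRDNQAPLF (TCRBV15-01) from 6 to 0 (adjusted p = 0.00400 by the same test). In mouse 4, 1 rearrangement of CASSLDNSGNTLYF (TCRBV12-01) fell from 9 to 2 (Fisher's exact test, adjusted p = 0.0252). All rearrangements of this CDR3 together had 9 templates on day 0 and 5 on day 7. In mouse 5 the largest day 0 clone, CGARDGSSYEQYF (TCRBV20-01), had 12 templates on day 0 and 0 on day 7, and was not called in that shallow library. On day 7, 143 of 162 clones with at least 5 templates had none on day 0. The counts were 68 of 81 with mRBC-CTRL and 99 of 127 at 2.5e8. Absence on day 0 was the rule for day 7 rearrangements of any size. Only 9 of 957, 14 of 3020, 36 of 3562 and 6 of 285 were found on day 0 in mice 2, 3, 4 and 5.

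The 10 largest day 0 clones of mice 2, 3, 4 and 5 were found again in 2, 1, 4 and 0 cases. Their summed share went from 1.5% to 5.27% in mouse 2 and from 1.74% to 3.28% in mouse 4, where the clones of 21 and 39 templates described above carried the share. It went from 1.49% to 0.185% in mouse 3 and from 0.794% to 0 in mouse 5.

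Few rearrangements were caught on both days. Mice 2, 3, 4 and 5 shared 9, 14, 36 and 6 endogenous rearrangements between days, out of 2161 to 4407 on day 0 and 285 to 3562 on day 7. At 482 templates, 0.377%, 0.208%, 0.583% and 0.139% of day 0 rearrangements were found on day 7 (0.327% ± 0.198, SD, n = 4). Between the day 0 and day 7 blood of different mice at 1e9 the share was 0 to 0.107%. At the deposited depth mouse 5 shared 0.136% with itself and up to 0.250% with another mouse, and by CDR3 at 482 templates 0.353% with itself, against up to 0.628% between different mice. Persistence was 0.182% ± 0.152 with mRBC-CTRL (SD, n = 4, exact permutation p = 0.229) and 0.243% ± 0.0677 at 2.5e8 (SD, n = 5, exact permutation p = 0.452). Singletons made up 63.1% to 69.7% of the rearrangements of a library.

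The day 7 tumor of the same mouse, which took no part in the calls, held most of the clones that were higher in blood. In mice 2, 3, 4 and 5, 12 of 14, 34 of 38, 39 of 48 and 7 of 8 higher clones were found in the tumor (86.0% ± 3.51, SD, n = 4). Of the other day 7 blood rearrangements, 21 of 943, 73 of 2982, 92 of 3514 and 35 of 277 were found there (2.23%, 2.45%, 2.62% and 12.6%). Clone size differs between these sets, and among the clones with at least 5 templates on day 7 that were not called, 28 of 56 were found. The tumors of the other 1e9 mice held at most 5 of the higher clones of a mouse. With mRBC-CTRL 32 of 34 higher clones were found in the tumor and at 2.5e8 103 of 120. Of the clones with at least 5 templates on day 7 that were not called, 38 of 47 and 7 of 10 were found there. Tumor depth differed, with 11484 to 23605 endogenous templates with mRBC-CTRL and 2589 to 13790 at 2.5e8, against 832 to 4241 at 1e9 (lymphoma CDR3 left out).

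The higher clones held 13.6%, 68.0%, 52.1% and 36.1% of the endogenous templates of the tumor, with the lymphoma CDR3 left out. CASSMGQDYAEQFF ranked first in the tumor of mouse 5, with 1131 templates or 29.2%. In the tumor of mouse 3, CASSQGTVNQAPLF ranked first with 480 templates (11.9%), followed by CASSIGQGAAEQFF with 401 (9.93%) and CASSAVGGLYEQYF with 355 (8.79%). The largest of these 3 clones in blood was thus the smallest in the tumor. In mouse 4 the first in the tumor was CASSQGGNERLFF (TCRBV05-01), named after its values were seen, with 738 templates (17.4%), and 2 and 107 templates in blood on day 0 and day 7. The same tumor held 280 templates of the TCRBV20-01 clone and 238 of the TCRBV13-03 clone. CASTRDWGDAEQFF, large on both days in the blood of mouse 4, had 27 templates in the tumor (0.637%). In mouse 2 the TCRBV02-01 clone had 31 templates in the tumor and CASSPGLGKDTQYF, the larger one in blood, had 13. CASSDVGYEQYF ranked first in the tumor of mouse 1, with 398 templates (13.4%). The 3 clones called lower had 0 templates in the tumor.

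**Figure D2:**
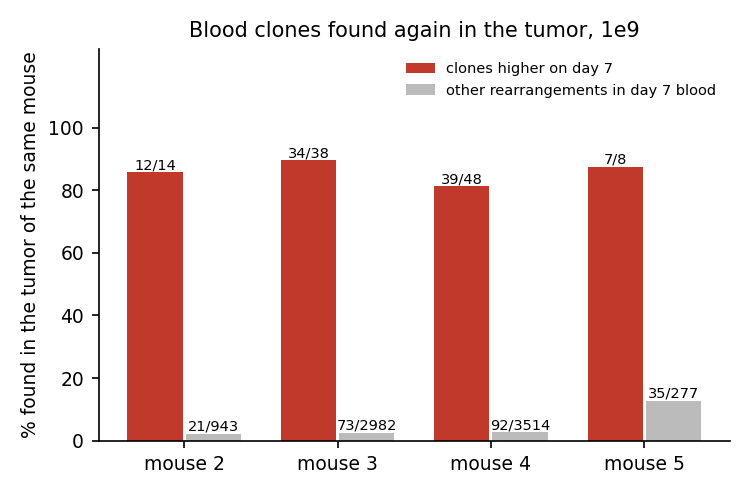
For each 1e9 mouse with both days, the percent of day 7 blood rearrangements also found in the day 7 tumor of that mouse, for clones called higher in blood and for all other rearrangements, with the number found of the number present. Higher clones were found in 81.3% to 89.5% of cases and the others in 2.23% to 12.6%.

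Clonality, here 1 minus the normalised Shannon entropy of the endogenous rearrangements (0 when all clones are of equal size), was compared at 482 templates in every library. On day 0 it was 0.00248, 0.00320, 0.00253 and 0.00168 in mice 2, 3, 4 and 5. On day 7 it was 0.0551, 0.0544, 0.0423 and 0.0890 in the same mice, and 0.0127 in mouse 1. The groups of day 0 and day 7 values did not overlap. Clonality was higher on day 7 in 4 of 4 mice, by 0.0578 ± 0.0206 (SD, n = 4, 2-sided exact sign-flip p = 0.125, the smallest p that 4 pairs allow).

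The change was 0.00270 ± 0.00279 with mRBC-CTRL (SD, n = 4) and 0.0308 ± 0.0191 at 2.5e8 (SD, n = 5). The difference from mRBC-CTRL was 0.0551 (2-sided exact permutation p = 0.0286, adjusted p = 0.2 over 14 comparisons), and from 2.5e8 it was 0.0270 (exact permutation p = 0.0952). Without mouse 5 and at 1595 templates, the change was 0.0686 and its difference from mRBC-CTRL 0.0636 (exact permutation p = 0.0286). At 482 templates, a day 0 library held 457 to 469 distinct rearrangements, and the day 7 libraries of mice 1 to 5 held 433, 365, 359, 390 and 285. The 10 largest clones at this depth made up 4.17% to 4.52% of templates on day 0 and 8.73%, 19.3%, 20.6%, 16.9% and 23.2% on day 7 in mice 1 to 5, with the lowest day 7 share in mouse 1.

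**Figure D3:**
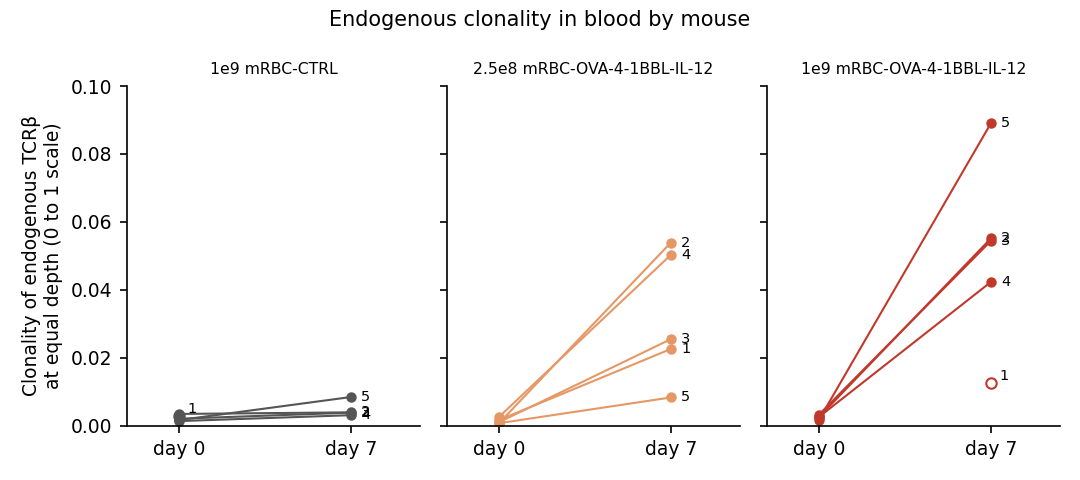
Clonality of endogenous rearrangements at 482 templates on day 0 and day 7, with 1 line per mouse in each dose group and a lone point for a mouse with 1 day. The paired mice at 1e9 lay between 0.00168 and 0.00320 on day 0 and between 0.0423 and 0.0890 on day 7, and numbers beside the points are mouse numbers.

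V segment use was compared by the number of rearrangements, each counted once, so that a large clone did not set the value of its segment. Of 22 V segments tested, 2 were changed (9.09%, edgeR quasi-likelihood test with mouse as a block, adjusted p under 0.05), and both were higher. TCRBV12-01, the segment used by the OT-1 receptor itself, made up 4.73%, 4.16%, 4.86% and 4.13% of rearrangements on day 0 and 6.69%, 7.42%, 6.60% and 6.67% on day 7 in mice 2, 3, 4 and 5. All day 7 values lay above all day 0 values, and the unpaired mouse 1 had 5.47%. The log2 change was 0.59 (SE 0.12, adjusted p = 1.45e-04).

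TCRBV29-01 made up 3.01%, 2.55%, 2.93% and 3.04% on day 0 and 3.03%, 4.74%, 3.90% and 6.32% on day 7. It was higher in 4 of 4 mice, although in mouse 2 by a margin smaller than the spread of the day 0 values. The log2 change was 0.56 (SE 0.15, adjusted p = 0.00527 by edgeR), and without mouse 3 or without mouse 5 it was not called (adjusted p = 0.126 and 0.0717). The next segment, TCRBV31-01, had a log2 change of −0.34 (adjusted p = 0.0519). Compared with mRBC-CTRL in an interaction fit, 2 of 23 segments differed in their change (8.7%), TCRBV12-01 by 0.38 and TCRBV29-01 by 0.49 on the log2 scale (edgeR, adjusted p = 0.0422 for each).

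Some TCRBV12-01 rearrangements carried a CDR3 that also occurred with another V segment in the same library. There were 0, 0, 2 and 5 of these on day 0 and 3, 38, 17 and 1 on day 7 in mice 2, 3, 4 and 5, and their part in the change was tested by counting each CDR3 once. TCRBV12-01 was then still higher (log2 0.52, edgeR adjusted p = 0.00147), and its difference from mRBC-CTRL was 0.31 in place of 0.38 and no longer called (adjusted p = 0.166). TCRBV29-01, which had 0 such rearrangements in every 1e9 library, also lost that call (0.45 in place of 0.49, adjusted p = 0.144). With DESeq2 or with templates in place of rearrangements, 0 V segments were called, with log2 changes of 0.61 and 0.51 for TCRBV12-01 and 0.59 and 0.53 for TCRBV29-01.

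Among the 5 V segments that pair with the invariant NKT α chain (TCRBV01-01, TCRBV13-01, TCRBV13-02, TCRBV13-03 and TCRBV29-01), TCRBV29-01 was called higher and none lower, with a median log2 change of 0.06 against 0.04 over all 22 segments. Of the Vβ5 pair, TCRBV12-01 was called and TCRBV12-02 was not (log2 0.16, edgeR adjusted p = 0.590). Of the 108 higher clones, 36 (33.3%) used a segment of the first list and 10 (9.26%) one of the second, near the 30.8% to 33.0% and 8.90% to 11% of all day 7 rearrangements in a 1e9 library. TCRBV19-01 was their most frequent segment, with 15 clones (13.9%), against 6.17% to 8.25% of all day 7 rearrangements in a 1e9 library. It was picked for this count, and the difference was not tested. The share of TCRBV19-01 among all rearrangements changed by −0.09 on the log2 scale (edgeR adjusted p = 0.590).

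Of 12 J segments, 1 was changed (8.33%). TCRBJ02-03 made up 9.11%, 9.07%, 8.59% and 8.71% of rearrangements on day 0 and 6.58%, 7.88%, 7.55% and 4.56% on day 7 in mice 2, 3, 4 and 5. It fell by 0.28 on the log2 scale (SE 0.08, edgeR adjusted p = 0.0207) and was lower in 4 of 4 mice, with 8.14% in the unpaired mouse 1. Its change differed from that with mRBC-CTRL by −0.36 (SE 0.10, adjusted p = 0.00748), again 1 of 12 segments (8.33%). Without mouse 2, 4 or 5 it was not called (edgeR adjusted p = 0.406, 0.0619 and 0.0638). The J2 cluster as a whole made up 62.8% to 64.5% of rearrangements on day 0 and 61.3% to 68.8% on day 7, and was used by 77 of the 108 higher clones.

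**Figure D4:**
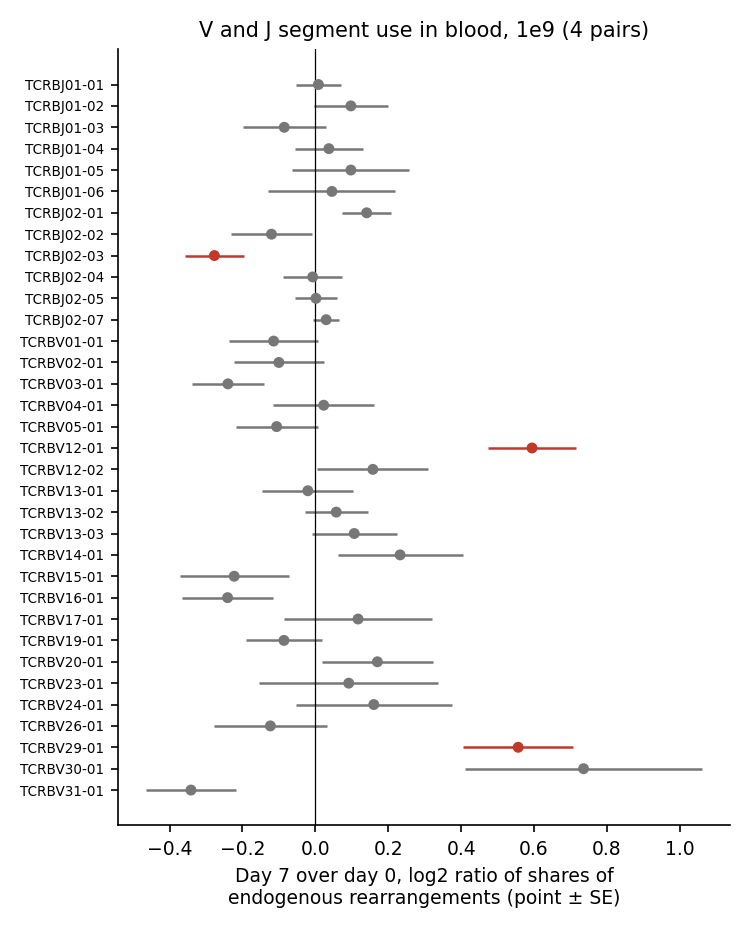
Log2 ratio of the share of endogenous rearrangements that used each of the 22 V and 12 J segments tested, day 7 over day 0, from the edgeR fit over 4 pairs at 1e9 (points, with bars of 1 SE). Red marks the segments with an adjusted p under 0.05, TCRBV12-01 at 0.59, TCRBV29-01 at 0.56 and TCRBJ02-03 at −0.28.

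Non-productive rearrangements gave a readout that takes no part in antigen recognition. Those carried by transferred cells, if any, could not be told apart and were not left out. The non-productive share of all templates other than OT-1 was 30.7%, 32.4%, 33.6% and 31.7% on day 0 and 32.6%, 30.5%, 34.6% and 35.7% on day 7 in mice 2, 3, 4 and 5, and 31.7% in mouse 1. The change was 1.29 percentage points ± 2.44 (SD, n = 4, higher in 3 of 4 mice, exact sign-flip p = 0.375), within the spread between mice. It differed from the change with mRBC-CTRL by 0.765 (exact permutation p = 0.6).

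Single non-productive rearrangements were also called higher. Of 73 tested, 38 (52.1%) were called higher and 1 lower, by mouse 6, 13, 16 and 3 higher. They made up 10.4%, 16.6%, 27.6% and 8.58% of non-productive templates on day 7, and 37 of 38 were found in the tumor of the mouse. With mRBC-CTRL 15 of 27 were called higher and 4 lower, and at 2.5e8 31 of 48 higher and 0 lower. Of these higher rearrangements, 14 of 15 and 24 of 31 were found in the tumor. The share called higher at the full dose was thus no larger than in these groups, and the difference was not tested. The largest at 1e9 was a TCRBV17-01, TCRBJ01-01 rearrangement in mouse 4 with 1 template on day 0 and 466 on day 7 (13.4% of non-productive templates). The largest endogenous productive clone of the same blood had 305 templates, and OT-1 had 6109. This non-productive rearrangement had 299 templates in the tumor. In mouse 3 a TCRBV04-01, TCRBJ02-07 rearrangement went from 0 to 102 templates and had 342 in the tumor. In mouse 2 the largest, TCRBV19-01 with TCRBJ02-07, went from 0 to 26, and in mouse 5 the largest, TCRBV04-01 with TCRBJ02-07, from 1 to 11. Which productive clone shares a cell with each of them cannot be read from pooled DNA.

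The mean CDR3 length over rearrangements was 41.6, 41.8, 41.7 and 41.7 bases on day 0 and 41.5, 41.7, 41.7 and 41.9 on day 7 (change 0.0279 ± 0.163, SD, n = 4, exact sign-flip p = 0.875). Inserted bases per rearrangement were 3.33, 3.35, 3.35 and 3.35 on day 0 and 3.50, 3.44, 3.36 and 3.71 on day 7. They were higher in 4 of 4 mice, by 0.158 ± 0.151 (SD, n = 4, exact sign-flip p = 0.125). The difference from mRBC-CTRL was 0.156 (exact permutation p = 0.0857), and it turned to −0.107 when each template was counted.

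A group of related receptors stood out among the large clones and is given as a description, since it was chosen after its values were seen. It comprises TCRBV19-01 CDR3s that begin with CASSMG or CASSIG, among them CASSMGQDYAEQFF, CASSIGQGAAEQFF and the TCRBV19-01, TCRBJ02-07 clone of mouse 5, whose reads open the list above. They made up 1.41%, 0.928%, 0.976% and 1.10% of endogenous templates on day 0 in mice 2, 3, 4 and 5, and 1.05%, 1.19%, 3.68%, 0.714% and 16.6% on day 7 in mice 1 to 5. Mice 3 and 5 were high and the others near the day 0 level. On day 7 at 2.5e8 the share was 5.40%, 7.80%, 1.45%, 2.52% and 2.16%, and with mRBC-CTRL 0.946% to 1.02%. Among clones called higher, 5 of 108 were of this group at 1e9, 8 of 120 at 2.5e8 and 0 of 34 with mRBC-CTRL. The group made up 0.955% to 2.11% of all day 7 rearrangements of a library at 1e9, 1.09% to 1.39% at 2.5e8 and 0.978% to 1.07% with mRBC-CTRL, and at such shares 34 clones are too few to show a lack of the group. The CDR3 of that TCRBJ02-07 clone, with 9 templates over 2 rearrangements in the day 7 blood of mouse 5, had 22 templates on day 0 and 338 on day 7 in the blood of mouse 2 at 2.5e8, and 139 and 3270 templates in the tumors of these mice.

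**Figure D5:**
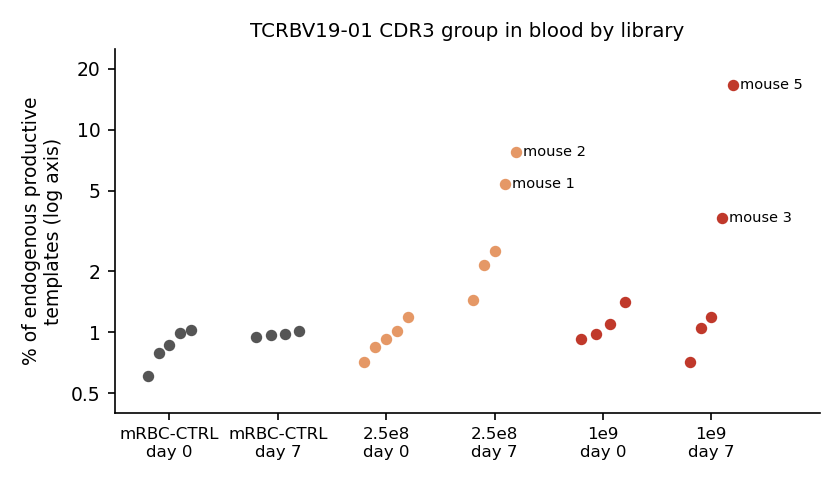
Percent of endogenous productive templates with a TCRBV19-01 CDR3 of the group described, by blood library on a log axis, for each dose group on day 0 and day 7 (points are mice). On day 7, mouse 5 at 1e9 had 16.6%, and the mRBC-CTRL mice lay between 0.946% and 1.02%.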

How the data were processed

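Genomic DNA of blood (day 0 and day 7) and of day 7 tumors was sequenced with the immunoSEQ assay, in which rearranged TCRβ CDR3 regions are amplified by a bias-controlled multiplex PCR. The authors deposited an unnormalized count of templates per rearrangement, after collapsing and filtering the reads. The authors also deposited each rearrangement as a fraction of all templates of its library, which was not used for tests. No reads were processed here, and the aligner and genome build are not given in the sources used here.

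Counts were read per library, and a clone was a nucleotide rearrangement. Day 0 and day 7 blood of the same animal was paired, as given by the mouse numbers of the labels. Clones with at least 5 templates over both days were compared by 2-sided Fisher's exact tests, with Benjamini-Hochberg adjustment within the mouse at 0.05. This test has no replicate within a mouse, so it measures the difference between 2 blood samples. Clonality, persistence and calls were also computed at 482 endogenous templates, the depth of the smallest library, as means of 20 seeded draws. Means of changes were compared by exact sign-flip tests within mice and exact permutation tests between dose groups, and the 14 comparisons between dose groups were adjusted together. V and J segments with a mean of at least 5 rearrangements per library were tested with edgeR's quasi-likelihood test, with the mouse as a block and no normalization beyond library size. Intervals are 95% Wilson intervals for shares, and 3 templates were taken as the floor of a library. Both cover counting error only. The procedures were tested on simulated data. For the Fisher's exact test, libraries were drawn from the pooled blood clones of mouse 4 at 1e9, and chosen clones were multiplied before shares were rescaled. With no change, 0 of 250 tested clones were called. At 8-fold, 15 of 186 tested changed clones (8.1%) were called higher, so most such rises were missed. At 40-fold, 188 of 200 (94%) were called higher, and 20 of the other clones were also called.

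Clones were named by rule: the 3 largest called higher and the 3 largest called lower in each mouse, the largest of each library, any CDR3 called alike in 2 or more mice, and V and J segments past the threshold, or the 3 with the smallest p. CDR3s of 15 or more residues were named by mouse, V and J segment. Chosen after seeing the data were the calls of single non-productive rearrangements, the number of clones called at equal depth, the values without mouse 5 at 1595 templates, counting each CDR3 once, and the TCRBV19-01 group. The members and lists were chosen with earlier results of these data known. Alternatives were other minimums, thresholds, denominators, depths, clone definitions and segment counts, DESeq2, fits with and without the block, and leaving out each mouse. Tools were R 4.3.3 with edgeR 4.0.16 and DESeq2 1.42.0, and python 3.11.15 with scipy 1.17.1, numpy 2.4.6, pandas 2.3.3, edlib 1.3.9.post1 and matplotlib 3.10.9.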

Additional observations from a re-analysis of the deposited data

Results flagged for a closer look

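In the day 7 blood at 1e9, TCRBV19-01 CDR3s beginning with CASSMG or CASSIG made up 16.6% of endogenous templates in mouse 5, far from the other 4 mice. The share of day 7 rearrangements not called higher that were also found in the tumor was 12.6% in mouse 5, far from the other mice, and its day 7 library was the shallowest. These were 2 of 29 groups of values examined for a distant sample, and chance marks about 1 in 20.

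Changes at 1e9 differed from those with mRBC-CTRL in 5 measures. The difference was 0.0551 for clonality and 4.25 for the number of clones called higher at equal depth (exact permutation p = 0.0286 for each, adjusted p = 0.2). On the log2 scale it was 0.38 for TCRBV12-01, 0.49 for TCRBV29-01 and −0.36 for TCRBJ02-03 (edgeR interaction).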

How the results depend on the processing

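Of 204 alternative values, 147 were taken as unchanged and 18 turned in direction. Unchanged meant the same direction and side of the threshold for tests, and a similar size for counts. Values that were not unchanged are given here, and the cause was not tested unless stated. Against 108 higher clones, counts taken as unchanged included 78 with all productive templates as denominator and 79 at adjusted p under 0.01. They were 81 with at least 10 templates and 77 with at least 2, of which 57 were among the 108. They were 111 by CDR3 and 89.75 with both libraries of a mouse at the same depth. The count of clones lower on day 7 was 1 with at least 10 or at least 2 templates, 14 with clones taken by CDR3 and 0 with all libraries at the smallest depth, where 19.2 were higher. Among non-productive rearrangements 38 were higher. Leaving out 1 mouse gave 60 to 100 higher and 1 to 3 lower clones, and without mouse 4 and without mouse 3 the counts higher were 60 and 70. With 1 mouse left out, the difference in percent of clones called was −2.10 to 7.40 against mRBC-CTRL and −3.45 to 6.05 against 2.5e8, and against mRBC-CTRL it was 23.4 at the deposited depth and 14.9 without mouse 5 at the next depth. For the number of clones called higher, the difference from mRBC-CTRL was 18.5 at the deposited depth (exact permutation p = 0.114) and 4.25 with a replicate block by mouse number (exact p = 0.125, the smallest it allows). The difference from 2.5e8 was 1.38 to 2.85 with 1 mouse left out and 7.99 without mouse 5 at the next depth (exact permutation p = 0.0179). Persistence minus mRBC-CTRL was −0.110 at the deposited depth, and minus 2.5e8 −0.0264 by CDR3 and −0.00178 to 0.146 with 1 mouse left out. With no replicate block, so that unpaired mouse 1 entered, the change was 0.0482 in clonality and 0.153 in inserted bases (exact permutation p = 0.0159 for each), 4 V segments were called and 0 J segments. With OT-1 in the denominator, which rose itself, the non-productive share changed by −10.3 points, −15.2 against mRBC-CTRL and −16.4 against 2.5e8, and with 1 mouse left out its differences were −0.162 to 1.80 and −1.71 to 0.254. With each template counted, the change was −0.0913 in CDR3 length and −0.0901 in inserted bases, the latter −0.107 against mRBC-CTRL and −0.141 against 2.5e8. With 1 mouse left out, the change in CDR3 length was −0.0473 to 0.0712, its difference from mRBC-CTRL −0.106 to 0.0122, and that of inserted bases 0.0872 to 0.205. V segments called were 0 by templates, 0 by DESeq2 and 1 to 3 with 1 mouse left out, and 0 differed from mRBC-CTRL with each CDR3 counted once. J segments called were 0 by templates and 0 to 1 with 1 mouse left out. In mice 2 and 5, losses from 8 and 12 templates to 0 were not called.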
